A study of Rattus norvegicus with 15 samples.

Results

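The insulin-like growth factor (IGF) system was followed through 10 of its genes in synovial tissue of rats: the ligands Igf1 and Igf2, the receptor Igf1r, the binding proteins Igfbp3, Igfbp4 and Igfbp5, the pappalysins Pappa and Pappa2, and the stanniocalcins Stc1 and Stc2. The genes were taken by symbol from the table of counts, where all 10 were present among 23342 symbols, and all 10 passed the filter on low counts that left 16046 genes for testing. The tissue came from 15 wild-type rats in 3 groups of 5 libraries. The Ab group had adjuvant-induced arthritis and received an anti-cANGPTL4 antibody into the peritoneum on repeated days of each week. The AIA group had the same arthritis without the antibody, and the CON group was untreated. In both arthritic groups the disease was started by an intradermal tail injection of Complete Freund's Adjuvant (100 uL). The sources used here give neither strain, age nor time of sampling, and they name no vehicle and no isotype control. The name cANGPTL4 stands for a part of the protein ANGPTL4, and what the antibody blocks was not measured here.

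IGF-I and IGF-II are secreted growth factors that act through the IGF-I receptor, a tyrosine kinase, and in joints IGF-I is known for stimulating cartilage matrix synthesis. Binding proteins hold most IGF outside cells away from the receptor. The pappalysins PAPP-A and PAPP-A2 are secreted metalloproteases that cut binding proteins and so release IGF, and the stanniocalcins bind and block the pappalysins, as was worked out mainly with human proteins. The data here are transcript levels only.

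Pappa2, Stc2 and Igfbp3 were called lower in AIA than in CON synovium, and Igfbp3 also in Ab than in CON. The AIA calls ended when AIA replicates 18, 19 and 23 were left out together. To show what lies upstream of these called genes, the 250 bases before the annotated start of each are printed from RefSeq (build GRCr8, gene strand, 5′ to 3′). Capitals mark a match on either strand to 1 of 4 motifs: the TATA box, spelled TATAA, the CCAAT box, the GC box, spelled GGGCGG, and the core of a hypoxia response element, spelled ACGTG.
Pappa2, chr13:73681569-73681818, minus strand: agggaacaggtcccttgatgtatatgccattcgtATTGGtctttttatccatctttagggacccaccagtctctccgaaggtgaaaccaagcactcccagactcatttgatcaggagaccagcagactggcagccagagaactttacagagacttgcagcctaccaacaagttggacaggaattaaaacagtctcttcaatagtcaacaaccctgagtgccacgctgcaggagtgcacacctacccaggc
Stc2, chr10:16755258-16755507, plus strand: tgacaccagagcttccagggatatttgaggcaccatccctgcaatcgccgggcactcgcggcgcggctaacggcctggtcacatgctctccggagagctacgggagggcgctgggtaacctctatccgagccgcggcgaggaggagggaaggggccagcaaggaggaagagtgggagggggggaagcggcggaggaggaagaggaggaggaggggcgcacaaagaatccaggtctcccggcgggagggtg
Igfbp3, chr14:86277945-86278194, minus strand: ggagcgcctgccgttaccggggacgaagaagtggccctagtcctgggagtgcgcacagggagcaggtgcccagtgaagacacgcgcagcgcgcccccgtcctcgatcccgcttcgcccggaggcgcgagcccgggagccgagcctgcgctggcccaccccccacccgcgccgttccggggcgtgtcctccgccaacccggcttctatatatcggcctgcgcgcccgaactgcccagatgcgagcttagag

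These 3 windows had little in common in their letters. The Pappa2 window held 3 CG dinucleotides at 49.2% GC, the Stc2 window 19 at 66.4% and the Igfbp3 window 31 at 71.6%, against a median of 5 CG dinucleotides over 33469 windows of the same length (quartiles 2 and 15). A CCAAT match, on the opposite strand, was the only match in the Pappa2 window, and the other 2 windows held none of the 4 motifs as spelled. Only these exact spellings were searched. The Igfbp3 window holds the letters tatatat near its end, which a search for TATAA does not match, so a TATA box there is not excluded. Of all windows, 34% held the CCAAT box, 24% the TATA box, 30.5% the GC box and 16.6% the hypoxia response core. The annotated Pappa2 gene extends to position 73683699 on chromosome 13, upstream of the window, so the start used here is not its outermost one. A RefSeq window was found for 8 of the 10 genes. The build behind the deposited counts is uncertain, so these coordinates belong to GRCr8 alone.

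Libraries held 31172215 to 34084345 counts. Lining fibroblast markers were measured in every library, with Prg4, which encodes lubricin, at 2714 to 11210 CPM, the count scaled to the TMM-adjusted size of its library. Skeletal muscle markers stood apart in AIA replicate 19 (12580 CPM summed over 6 markers) and CON replicate 2 (6402 CPM), against 15.6 to 56.2 CPM in the other 13 libraries. On the first principal component of log2 CPM (26.3% of the variance), AIA replicates 18, 19 and 23 stood at -61.8, -72.6 and -44.6 and the other 12 libraries at -2.89 to 29.5. Calls are therefore also given without both libraries with muscle transcripts, and without these 3 AIA libraries, which leaves 2 in the AIA group. Without the 3, 0 of the 10 genes were called in AIA against CON or in Ab against AIA by edgeR, and the whole table gave 336 calls and 1 call. In tissue RNA, fewer cells of a type and less RNA per cell cannot be told apart.

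The levels of the 10 genes, compared per length in deposited FPKM, covered more than 3 orders of magnitude, with binding proteins at the top and pappalysins at the bottom. In CON, Igfbp5 averaged 392 FPKM and Igfbp4 377 FPKM, with overlapping ranges. Igfbp3 (46.7 FPKM), Igf1 (46.2) and Igf2 (19.2) followed, each overlapping with the next. Stc2 was next at 5.40 FPKM, apart from its neighbours on both sides. Igf1r (3.18 FPKM), Stc1 (2.97) and Pappa2 (1.62) overlapped in turn, and Pappa was lowest at 0.303 FPKM, below every Pappa2 value. FPKM rests on the gene length the authors used. Worked back from counts and FPKM, this length ran from 910 bases for Stc2 to 13864 for Igf1r. A gene model that is too short raises a gene in this order.

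**Figure D1:**
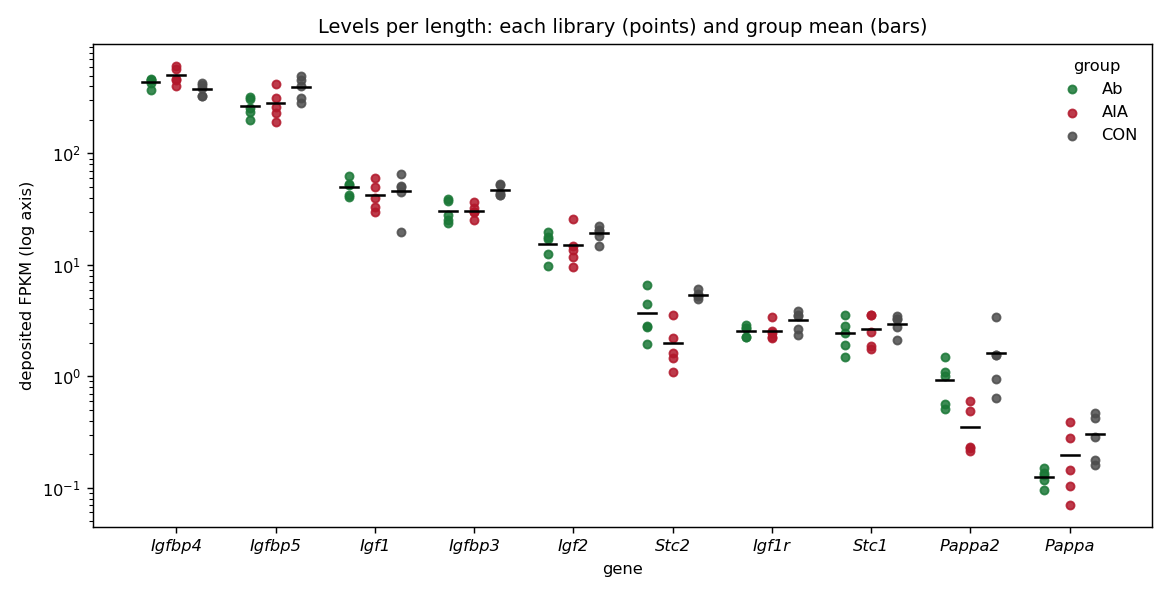
Deposited FPKM of the 10 genes on a log axis, by gene, with 1 point per library (n = 5 per group) and a bar at each group mean. Igfbp4 and Igfbp5 have the 2 highest means in all 3 groups and Pappa has the lowest, while Stc2 stands above Igf1r and Stc1 in the CON group and overlaps with both in the Ab and AIA groups.

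The order of the genes differed between groups. Igfbp4 exceeded Igfbp5 without overlap of ranges in Ab (435 and 265 FPKM), and with overlap in AIA (502 and 284 FPKM). The Igfbp4 to Igfbp5 ratio within a library was 1.43 to 2.28 in Ab, 1.10 to 2.5 in AIA and 0.775 to 1.46 in CON. The Stc2 to Stc1 ratio was 0.549 to 3.47 in Ab, 0.407 to 1.02 in AIA and 1.51 to 2.57 in CON, so that AIA and CON did not overlap. The Pappa2 to Pappa ratio was 3.70 to 11.5 in Ab, 0.832 to 4.72 in AIA and 2.22 to 9.75 in CON. These ratios are given as descriptions of each library, without a test.

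**Figure D2:**
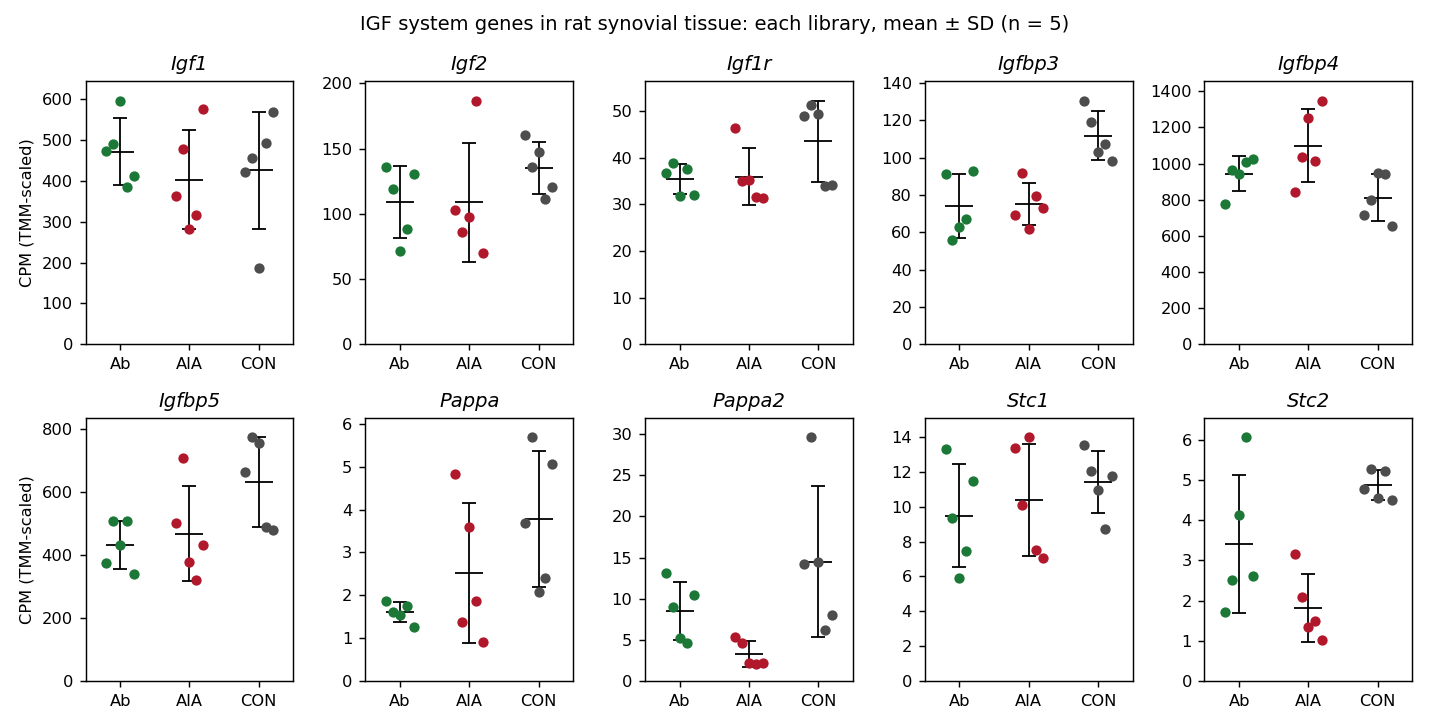
TMM-scaled CPM of each of the 10 genes (1 panel per gene, linear axis from 0) in the Ab, AIA and CON groups, with 1 point per library and the mean ± SD (n = 5). Pappa2, Stc2 and Igfbp3 show AIA points wholly below the CON points, and the Igf1 panel shows CON replicate 11 far below the other CON libraries.

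The first comparison asks what arthritis changed. Of the 10 genes, 3 were called lower in AIA than in CON at an adjusted p under 0.05 (edgeR quasi-likelihood test, Benjamini-Hochberg over 16046 genes), where 3.45% of all genes tested were called lower. By edgeR 0 were called higher, where 5.09% of all genes were. Igfbp4 was the 1 higher at an unadjusted p under 0.05 and the 1 called higher by DESeq2, which called 7.15% of all genes higher. The share of all genes under that unadjusted p was not computed, so the count under it has no baseline. The median log2 fold change of the 10 was -0.37, and that of all genes tested was close to 0 (-0.003). The 3 called genes were also the 3 whose libraries did not overlap, where 3.17% of all genes lay lower without overlap.

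Pappa2, the pappalysin that cuts IGFBP-3 and IGFBP-5, had the largest change of the 10. It was measured at 13.2, 9.03, 5.25, 4.65 and 10.4 CPM in Ab replicates 3, 9, 10, 12 and 21_8. In AIA replicates 5, 13, 18, 19 and 23 it was at 5.37, 4.64, 2.14, 2.0 and 2.13 CPM, and in CON replicates 2, 7, 11, 14 and 17 at 14.2, 29.6, 14.5, 6.18 and 8.02 CPM. All AIA libraries lay below all CON libraries, and the Ab libraries overlapped with both. Pappa2 was 4.45-fold lower in AIA than in CON (log2 fold change -2.15 ± 0.44 SE, edgeR adjusted p = 0.00744). The call held in each of the 15 fits with 1 library left out (adjusted p 0.00432 to 0.023) and without both libraries with muscle transcripts (-2.03, adjusted p = 0.0388). It ended without AIA replicates 18, 19 and 23 together, where the change was -1.54 with adjusted p = 0.204.

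AIA replicates 18, 19 and 23, which stood apart on the first principal component, also held the lowest Pappa2 values of the 15 libraries. They had 15584, 11576 and 11329 CPM summed over 7 sublining fibroblast markers, against 3012 and 2974 CPM in replicates 5 and 13. Over the groups that sum was 1949 to 2653 CPM in Ab, 2974 to 15584 in AIA and 1912 to 5218 in CON. The sum is mostly Col1a1, at 1321 to 14530 CPM over the libraries, while no other marker of the 7 exceeded 402 CPM. Of the 7 markers, 2 were called higher in AIA than in CON, Col1a1 (log2 fold change 1.68) and Pdgfrb (0.64). Not called were Thy1 (0.90), Cd34 (0.45), Dpp4 (1.39), Pdgfra (-0.11) and Pi16 (-0.11). Lining fibroblast markers were at 4501 to 6877 CPM in Ab, 3487 to 7485 in AIA and 8567 to 14797 in CON, and all 5 were called lower in AIA and in Ab than in CON. T cell markers summed to 2.06 to 2.97 CPM in Ab, 5.70 to 18.5 in AIA and 0.851 to 2.27 in CON over 5 genes. Of the 4 tested, all 4 were called higher in AIA than in CON and all 4 lower in Ab than in AIA. Neutrophil markers summed to 32.8 to 309 CPM in Ab, 42.0 to 252 in AIA and 1.68 to 35.5 in CON over 5 genes, with 5 of 5 called higher in Ab and 4 of 5 in AIA than in CON. The part of these cell types in the Pappa2 values was not tested.

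Stc2, an inhibitor of PAPP-A that binds it covalently in humans, was the second of the called genes. Its levels were 1.70, 2.52, 4.13, 6.06 and 2.60 CPM in Ab replicates 3, 9, 10, 12 and 21_8. They were 3.17, 2.08, 1.33, 1.49 and 1.02 CPM in AIA replicates 5, 13, 18, 19 and 23, and 4.78, 5.28, 4.55, 5.23 and 4.49 CPM in CON replicates 2, 7, 11, 14 and 17. CON libraries were close together, all AIA libraries lay below them, and Ab libraries ranged from AIA levels to above the highest CON level. Stc2 was 2.67-fold lower in AIA than in CON (-1.42 ± 0.33 SE, edgeR adjusted p = 0.0154), and the call held with any 1 library left out (highest adjusted p 0.0438). Without both libraries with muscle transcripts the change was -1.36 with adjusted p = 0.0726, and without AIA replicates 18, 19 and 23 together it was -0.89 with adjusted p = 0.318. In AIA against CON the lining fibroblast markers above were 5 of 5 lower, the T cell markers 4 of 4 higher and the neutrophil markers 4 of 5 higher, and their part in the Stc2 values was not tested.

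Stc1, the related stanniocalcin, overlapped fully between groups. It averaged 9.49 ± 2.98 CPM in Ab, 10.4 ± 3.22 in AIA and 11.4 ± 1.77 in CON (SD, n = 5 each). The log2 fold change of AIA against CON was -0.14 with a 95% interval of -0.63 to 0.36.

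Igfbp3, which encodes the main IGF carrier of blood, was the third. Its levels were 91.3, 55.8, 63.1, 67.1 and 93.0 CPM in Ab replicates 3, 9, 10, 12 and 21_8. They were 69.3, 91.7, 61.6, 79.3 and 72.9 CPM in AIA replicates 5, 13, 18, 19 and 23, and 131, 119, 103, 107 and 98.2 CPM in CON replicates 2, 7, 11, 14 and 17. Every CON library lay above every Ab and every AIA library. The comparisons of AIA and of Ab against CON share the CON libraries, so their calls are not read as separate evidence. Igfbp3 was 1.49-fold lower in AIA than in CON (-0.57 ± 0.15 SE, edgeR adjusted p = 0.0227) and 1.51-fold lower in Ab than in CON (-0.59 ± 0.15, edgeR adjusted p = 0.0212). The call in AIA was lost without CON replicate 2 (adjusted p = 0.0625), AIA replicate 18 (0.0636) or AIA replicate 23 (0.0522), and without both libraries with muscle transcripts (0.0946), and without AIA replicates 18, 19 and 23 together (-0.47, adjusted p = 0.291). The call in Ab was lost without CON replicate 2 (0.0617), Ab replicate 10 (0.0599) or both libraries with muscle transcripts (0.0676). The lining fibroblast markers above were lower in the same 2 groups, and their part in the Igfbp3 values was not tested.

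The other binding proteins of the set did not pass the test. Igfbp4, whose product holds IGF until PAPP-A cuts it, was measured at 779, 962, 945, 1006 and 1027 CPM in Ab replicates 3, 9, 10, 12 and 21_8. It was at 843, 1037, 1254, 1012 and 1349 CPM in AIA replicates 5, 13, 18, 19 and 23, and at 716, 796, 945, 945 and 656 CPM in CON replicates 2, 7, 11, 14 and 17. In AIA 4 of 5 libraries exceeded every CON library, and replicate 5 lay among them. The log2 fold change of AIA against CON was 0.44 ± 0.14 SE with edgeR adjusted p = 0.0689, which became 0.0214 without AIA replicate 5, and DESeq2 gave adjusted p = 0.0189 where it called 7.15% of genes higher. Over the 15 fits with 1 library left out the edgeR adjusted p ran up to 0.175, without AIA replicate 23 (log2 fold change 0.35). It was 0.206 without both libraries with muscle transcripts, and without AIA replicates 18, 19 and 23 together the change was 0.21 with adjusted p = 0.651.

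Igfbp5, encoding a binding protein that attaches to matrix and bone mineral, averaged 431 ± 76.2 CPM in Ab, 467 ± 150 in AIA and 630 ± 142 in CON (SD, n = 5 each). The groups overlapped, with AIA replicate 13 at 706 CPM, above CON replicates 2, 14 and 17. The log2 fold change of AIA against CON was -0.43 ± 0.21 SE (edgeR adjusted p = 0.242), and without AIA replicate 13 it was -0.62 with adjusted p = 0.0461. Without AIA replicates 18, 19 and 23 together it was -0.06 with adjusted p = 0.95. That of Ab against CON was -0.55 ± 0.21 (edgeR adjusted p = 0.118).

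Neither ligand was called in any comparison. Igf1, the most abundant of the 2 ligand transcripts, was at 474, 491, 597, 384 and 412 CPM in Ab replicates 3, 9, 10, 12 and 21_8. It was at 363, 479, 281, 317 and 577 CPM in AIA replicates 5, 13, 18, 19 and 23, and at 422, 456, 187, 493 and 569 CPM in CON replicates 2, 7, 11, 14 and 17. The ranges of the 3 groups overlapped, and the lowest value of all was that of CON replicate 11. The log2 fold change of AIA against CON was -0.08 with a 95% interval of -0.61 to 0.46, and it turned to 0.05 without CON replicate 17 and 0.03 without AIA replicate 18. Ab against CON was 0.15 (interval -0.39 to 0.68), and -0.04 without CON replicate 11.

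Igf2, an imprinted growth factor gene, was at 136, 119, 71.8, 88.5 and 130 CPM in Ab replicates 3, 9, 10, 12 and 21_8. It was at 103, 86.3, 97.3, 187 and 70.1 CPM in AIA replicates 5, 13, 18, 19 and 23, and at 160, 136, 148, 111 and 120 CPM in CON replicates 2, 7, 11, 14 and 17. The highest library of the AIA group and that of the CON group were the 2 with skeletal muscle transcripts. H19, a noncoding RNA transcribed next to Igf2 and imprinted with it, was at 6222 CPM in AIA replicate 19 and 2916 CPM in CON replicate 2, and at 99.6 to 810 CPM in the other 13 libraries. The log2 fold change of Igf2 in AIA against CON was -0.31 (95% interval -0.81 to 0.18, edgeR adjusted p = 0.502). Without AIA replicate 19 it was -0.60 with adjusted p = 0.0678, and without AIA replicate 23 it was -0.19 with adjusted p = 0.735. Without both libraries with muscle transcripts it was -0.53 (adjusted p = 0.154), and without AIA replicates 18, 19 and 23 together -0.51 (adjusted p = 0.312).

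Igf1r, the receptor gene, averaged 35.4 ± 3.22 CPM in Ab, 35.9 ± 6.09 in AIA and 43.6 ± 8.70 in CON (SD, n = 5 each). CON replicates 2, 7 and 11 lay at 48.9 to 51.3 CPM, above every Ab and AIA library, while CON replicates 14 and 17 lay at 34.01 and 34.16 CPM. The log2 fold change was -0.28 ± 0.14 SE in AIA against CON (edgeR adjusted p = 0.258, and -0.10 without AIA replicates 18, 19 and 23 together) and -0.30 ± 0.14 in Ab against CON (edgeR adjusted p = 0.193).

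The second comparison asks what differed between arthritic rats with and without the antibody. By edgeR 0 of the 10 genes were called in Ab against AIA, where 5.83% of all genes tested were called, and 0 were without overlap, where 3.81% were. At an unadjusted p under 0.05, 2 were higher and 0 lower, counts without a baseline because the share of all genes was not computed. DESeq2 called 1 higher (Pappa2) and 0 lower, where it called 4.13% of all genes higher and 7.52% lower. This comparison shares the AIA libraries with the first, so the values of Pappa2 and Stc2 in both are set side by side and not read as separate evidence.

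Pappa2 was 2.61-fold higher in Ab than in AIA (log2 fold change 1.38 ± 0.43 SE, 95% interval 0.46 to 2.30), with edgeR adjusted p = 0.0708 and DESeq2 adjusted p = 0.0118. Its mean was 8.50 ± 3.58 CPM in Ab, 3.26 ± 1.62 in AIA and 14.5 ± 9.23 in CON (SD, n = 5 each), and 3 of 5 Ab libraries exceeded every AIA library. Without AIA replicate 5, AIA replicate 13 or CON replicate 7 the edgeR adjusted p became 0.0312, 0.0485 and 0.0494. The whole table gave 2032 calls without AIA replicate 5 and 1915 without AIA replicate 13, against 935 with all libraries. Over the 15 fits with 1 library left out the adjusted p of Pappa2 ran up to 0.172. It was 0.183 without both libraries with muscle transcripts (log2 fold change 1.25). Without AIA replicates 18, 19 and 23 together the change was 0.76 with adjusted p = 0.881. Against CON, the Ab value was -0.77 ± 0.42 (edgeR adjusted p = 0.282), and -0.34 without CON replicate 7 (adjusted p = 0.656).

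Stc2 stood at 0.90 ± 0.33 SE in Ab against AIA (95% interval 0.20 to 1.60, edgeR adjusted p = 0.112), and 2 of 5 Ab libraries exceeded every AIA library. Without AIA replicate 5 it was 1.2 with adjusted p = 0.0251, and without AIA replicates 18, 19 and 23 together 0.37 with adjusted p = 0.951. Against CON, the Ab value was -0.52 ± 0.32 (edgeR adjusted p = 0.359), and Ab replicate 12 exceeded every CON library while the other 4 lay below all of them. Without Ab replicate 12 Stc2 was at 0.58 against AIA (adjusted p = 0.292) and at -0.83 against CON (adjusted p = 0.114).

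Igfbp3 was at -0.02 in Ab against AIA (95% interval -0.33 to 0.29), beside -0.57 in AIA against CON. Igf1, Igf2, Igf1r and Igfbp5 were at 0.23, 0.01, -0.02 and -0.12 on the log2 scale, with Igf2 at -0.12 to 0.29 when 1 library was left out.

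**Figure D3:**
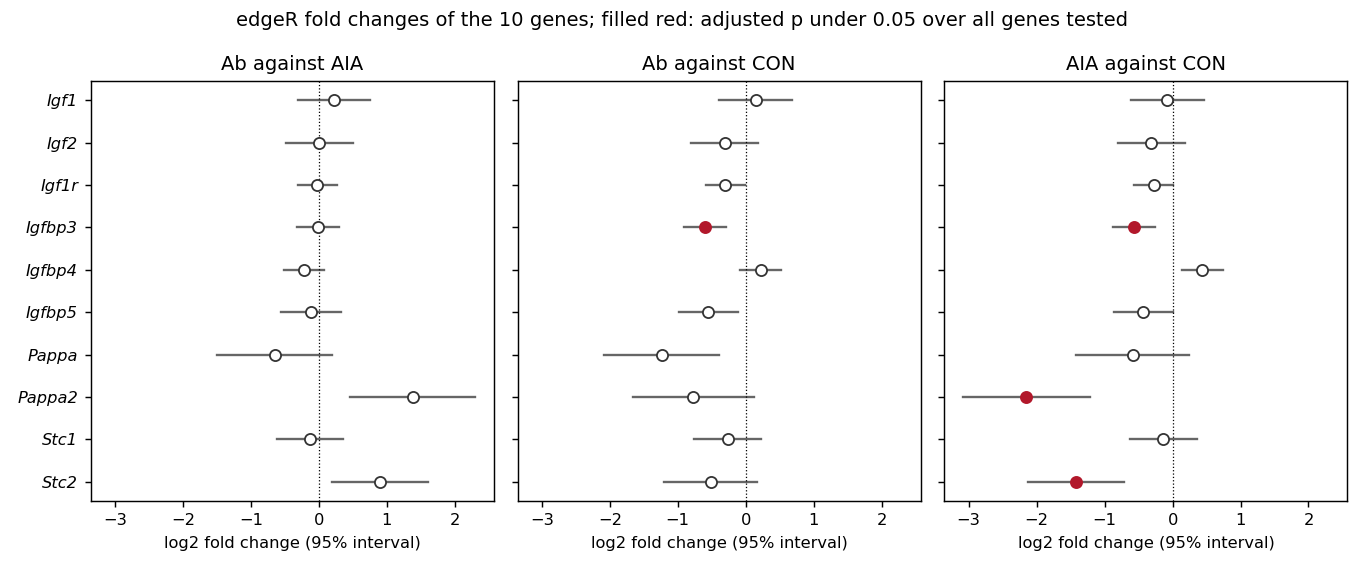
Log2 fold changes of the 10 genes with 95% intervals in Ab against AIA, Ab against CON and AIA against CON, from 1 edgeR fit. Filled red points mark adjusted p under 0.05 over all genes tested, which are Igfbp3 in Ab against CON and Pappa2, Stc2 and Igfbp3 in AIA against CON.

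The third comparison asks what still differed from untreated rats under the antibody, and Igfbp3 alone of the 10 was called. It was lower, and 4.66% of all genes tested were called lower. By edgeR 0 were higher, where 3.38% were, and 0 were higher at an unadjusted p under 0.05 or by DESeq2, which called 5.71% of all genes higher. DESeq2 called 2 of the 10 lower, where it called 6.94% of all genes lower. At an unadjusted p under 0.05, 4 of the 10 were lower. The share of all genes under that unadjusted p was not computed, so this count has no baseline and is not read as a result. Without overlap lay 2 of the 10, Igfbp3 and Pappa, where 5.27% of all genes lay lower without overlap. The median log2 fold change of the 10 was -0.41, and 0.003 over all genes tested.

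Pappa, the pappalysin that cuts IGFBP-4, was the least abundant of the 10, with 28 to 193 counts a library. It was at 1.86, 1.62, 1.54, 1.75 and 1.27 CPM in Ab replicates 3, 9, 10, 12 and 21_8. It was at 4.84, 1.38, 3.59, 1.87 and 0.918 CPM in AIA replicates 5, 13, 18, 19 and 23, and at 3.70, 5.69, 2.08, 2.40 and 5.06 CPM in CON replicates 2, 7, 11, 14 and 17. The Ab libraries were close together and all below the CON libraries, whereas the AIA libraries spread over both. Pappa was 2.35-fold lower in Ab than in CON (-1.23 ± 0.40 SE, 95% interval -2.08 to -0.39) with edgeR adjusted p = 0.0708. An exact permutation test (two-sided, 1 of 30, unadjusted) gave p = 0.0079, the smallest value possible with 5 libraries a group. That value follows from the lack of overlap and adds nothing to it. Pappa2, Stc2 and Igfbp3 in AIA against CON, and Igfbp3 in Ab against CON, had the same permutation p. DESeq2 called Pappa lower (adjusted p = 0.0197, with 6.94% of all genes called lower). So did edgeR without AIA replicate 5 (0.0423), without AIA replicate 23 (0.0459) and with the Ab and CON libraries alone (0.0153). edgeR also called it without AIA replicates 18, 19 and 23 together (0.0369), where the table gave 1829 calls against 1291 with all libraries. The other 13 of the 15 fits with 1 library left out did not call it, with adjusted p up to 0.149 without Ab replicate 21_8, and it was 0.12 without both libraries with muscle transcripts. In the same comparison macrophage markers (320 to 649 CPM summed over 5 genes in Ab and 619 to 947 in CON) were 3 of 5 lower. Lining fibroblast markers were 5 of 5 lower, chondrocyte markers 2 of 5 lower and neutrophil markers 5 of 5 higher, and their part in the Pappa values was not tested. In Ab against AIA Pappa was at -0.65 ± 0.40 (edgeR adjusted p = 0.354), and at -0.27 without AIA replicate 5. In AIA against CON it was at -0.58 ± 0.39 (edgeR adjusted p = 0.444), at -0.96 without AIA replicate 5 and at -0.37 without AIA replicate 23.

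The 10 genes did not vary together as 1 block over the 15 libraries. The highest Pearson correlations of log2 CPM among them were 0.76 between Igf1r and Igfbp5 and 0.68 between Igf1r and Pappa2. The lowest were -0.69 between Igfbp4 and Pappa2 and -0.64 between Igfbp4 and Pappa, the protease of its product. Libraries share their group in these correlations, which are descriptions without a test. Among all genes tested, those most like Pappa2 were Mark1, encoding a microtubule-linked kinase (r = 0.93), Ccdc3 (0.90) and Bmp6, a bone morphogenetic protein (0.90). Those most like Stc2 were Cachd1 (0.89), the sulfotransferase gene Chst12 (0.88) and Sun1, of the nuclear envelope (0.86). Those most like Igfbp3 were the phospholipase gene Pla2g5 (0.84), Lmo7 (0.84) and Camk2n1 (0.83).

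Other genes of the pathway were read from a list of 33 symbols. The table held 31 of them, and 26 passed the filter; Igfbp1 and Adam28 were not analysed here. In AIA against CON 4 of the 26 were higher and 1 lower, in Ab against AIA 1 was higher and 1 lower, and in Ab against CON 3 were higher and 3 lower. Their medians were 0.08, -0.03 and 0.07 on the log2 scale. Over all genes tested 5.09% were called higher and 3.45% lower in the first comparison, 1.83% and 3.99% in the second, and 3.38% and 4.66% in the third. Leaving out both muscle-bearing libraries gave 2 higher and 0 lower in AIA against CON, and 1 higher and 0 lower in Ab against AIA. Leaving out AIA replicates 18, 19 and 23 gave 0 called in either of these comparisons by edgeR, with the changes of the named genes below keeping their sign.

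Of the other binding proteins, Igfbp7, a relative with low affinity for IGFs, was the one called in 2 comparisons, which share the CON libraries. It was at 1129 to 1465 CPM in Ab, 998 to 1234 in AIA and 744 to 925 in CON, with both arthritic groups above every CON library. Its log2 fold change was 0.65 ± 0.10 SE in Ab against CON (edgeR adjusted p = 0.00206), and the call held with any 1 library left out. In AIA against CON it was 0.40 ± 0.10 (edgeR adjusted p = 0.0251), a call lost without CON replicate 2 (0.0699), 11 (0.0639) or 17 (0.0544), AIA replicate 23 (0.0713) or both libraries with muscle transcripts (0.0965), and without AIA replicates 18, 19 and 23 together (0.34, adjusted p = 0.253). Endothelial markers were at 1654 to 2336 CPM in Ab, 1553 to 1854 in AIA and 1113 to 1537 in CON over 4 genes, and their part in the Igfbp7 values was not tested.

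Igfbp6, a binding protein that prefers IGF-II, was at 42.0 to 73.5 CPM in Ab, 60.7 to 225 in AIA and 96.5 to 378 in CON. Ab and CON did not overlap (-1.81 ± 0.43 SE, edgeR adjusted p = 0.0171, and 0.0509 without Ab replicate 10). Igfals, the acid-labile subunit that joins IGF and IGFBP-3 in the blood complex, stood at 0.86 ± 0.24 in Ab against CON (edgeR adjusted p = 0.037) and had low levels, at 2.35 to 6.85 CPM in Ab, 2.30 to 3.84 in AIA and 2.32 to 2.95 in CON. The Igfals call was lost in 8 of the 15 fits with 1 library left out, with adjusted p up to 0.115 without Ab replicate 10. It was also lost with no filter (0.0523), with limma on log2(FPKM + 0.1) (0.0615) and log2(FPKM + 1) (0.0556), and without both libraries with muscle transcripts (0.0893).

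Among proteases, Adam12, a metalloprotease that cuts IGFBP-3 and IGFBP-5 in humans, was at 15.4 to 49.4 CPM in Ab, 32.4 to 99.0 in AIA and 4.43 to 20.3 in CON. All AIA libraries lay above all CON libraries, and Adam12 was 3.70-fold higher (log2 fold change 1.89 ± 0.41 SE, edgeR adjusted p = 0.0103), a call kept with any 1 library left out. Without AIA replicates 18, 19 and 23 together it was 1.27 with adjusted p = 0.201. Its value in Ab against AIA was -1.14 ± 0.40 (edgeR adjusted p = 0.098). T cell markers were 4 of 4 higher and neutrophil markers 4 of 5 higher in AIA than in CON. Sublining fibroblast markers were 2 of 7 higher and lining fibroblast markers 5 of 5 lower in that comparison. T cell markers were 4 of 4 lower and sublining fibroblast markers 4 of 7 lower in Ab than in AIA. Their part in the Adam12 values was not tested. Htra1, a serine protease that also degrades matrix, was at 300 to 422 CPM in Ab, 420 to 884 in AIA and 520 to 946 in CON. It was lower in Ab than in CON (-0.85 ± 0.21, edgeR adjusted p = 0.0187), a call lost without CON replicate 11 (0.0519) or Ab replicate 10 (0.0554). It was also lower in Ab than in AIA (-0.78 ± 0.21, edgeR adjusted p = 0.0378). This call was lost in 8 of the 15 fits with 1 library left out, with adjusted p up to 0.107 without AIA replicate 18. The Ab and AIA libraries alone (0.0691) and the fit without both libraries with muscle transcripts (0.0709) also lost it. Without AIA replicates 18, 19 and 23 together the change from AIA was -0.42 with adjusted p = 0.81. Chondrocyte markers were at 35.5 to 53.9 CPM in Ab, 70.8 to 578 in AIA and 93.9 to 250 in CON over 6 genes. Of the 5 tested, Acan and Comp were called lower in Ab than in AIA, while Col2a1 was at 2.11 and Cnmd at 0.55 without a call, and Comp and Sox9 were called lower in Ab than in CON. In Ab against AIA 4 of 7 sublining fibroblast markers were called lower. Macrophage markers were 3 of 5 lower in Ab than in AIA and 3 of 5 lower in Ab than in CON. In AIA against CON 1 of 5 macrophage markers was higher. The part of these cell types in the Htra1 values was not tested.

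Of the adaptor genes that act below the receptor, Grb14 was called between the Ab and AIA groups. Grb14, which dampens insulin receptor signalling, was at 48.2, 65.8, 111, 122 and 34.3 CPM in Ab replicates 3, 9, 10, 12 and 21_8. It was at 25.4, 25.2, 20.5, 22.4 and 28.1 CPM in AIA replicates 5, 13, 18, 19 and 23, and at 34.9 to 68.3 CPM in CON. All AIA libraries lay below every other library, and Grb14 was 3.14-fold higher in Ab than in AIA (log2 fold change 1.65 ± 0.30 SE, edgeR adjusted p = 0.0124), a call kept with any 1 library left out. Without AIA replicates 18, 19 and 23 together it was 1.59 with adjusted p = 0.563. Adipocyte markers were at 5640 to 7201 CPM in Ab, 2013 to 6529 in AIA and 3353 to 5417 in CON over 4 genes. AIA replicates 5 and 13 were at 5982 and 6529 CPM, within the Ab range. Of the 4 markers 1, Lep, was called higher in Ab than in AIA. The part of adipocytes in the Grb14 values was not tested.

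Shc1, which links the receptor to Ras, was at 267 to 308 CPM in Ab, 261 to 355 in AIA and 198 to 238 in CON. Both arthritic groups lay above every CON library, at 0.41 ± 0.09 SE in Ab (edgeR adjusted p = 0.0154) and 0.53 ± 0.09 in AIA (edgeR adjusted p = 0.0033). Both calls were kept with any 1 library left out, and they share the CON libraries. Without AIA replicates 18, 19 and 23 together the AIA value was 0.47 with adjusted p = 0.081. Grb10, a relative of Grb14, was at 0.39 ± 0.09 in AIA against CON (edgeR adjusted p = 0.0179). The call was lost without CON replicate 14 (0.0503), with the AIA and CON libraries alone (0.059) and without both libraries with muscle transcripts (0.0792). It was also lost without AIA replicates 18, 19 and 23 together (0.15, adjusted p = 0.54). Foxo1, a transcription factor that Akt holds in check, was at -0.44 ± 0.13 in AIA against CON (edgeR adjusted p = 0.0494). That call was lost in 11 of the 15 fits with 1 library left out, with adjusted p up to 0.135 without CON replicate 2. It was also lost with RLE factors (0.0518), with no filter (0.0596) and with the AIA and CON libraries alone (0.115). Foxo1 was at -0.28 with adjusted p = 0.289 without both libraries with muscle transcripts. Without AIA replicates 18, 19 and 23 together it was at -0.25 with adjusted p = 0.56. Igf2bp2, which binds Igf2 messenger RNA, was at -0.43 ± 0.12 in Ab against CON (edgeR adjusted p = 0.0383), a call lost in 8 of those 15 fits, with adjusted p up to 0.103 without CON replicate 2, and also with no filter (0.0613) and without both libraries with muscle transcripts (0.115).

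**Figure D4:**
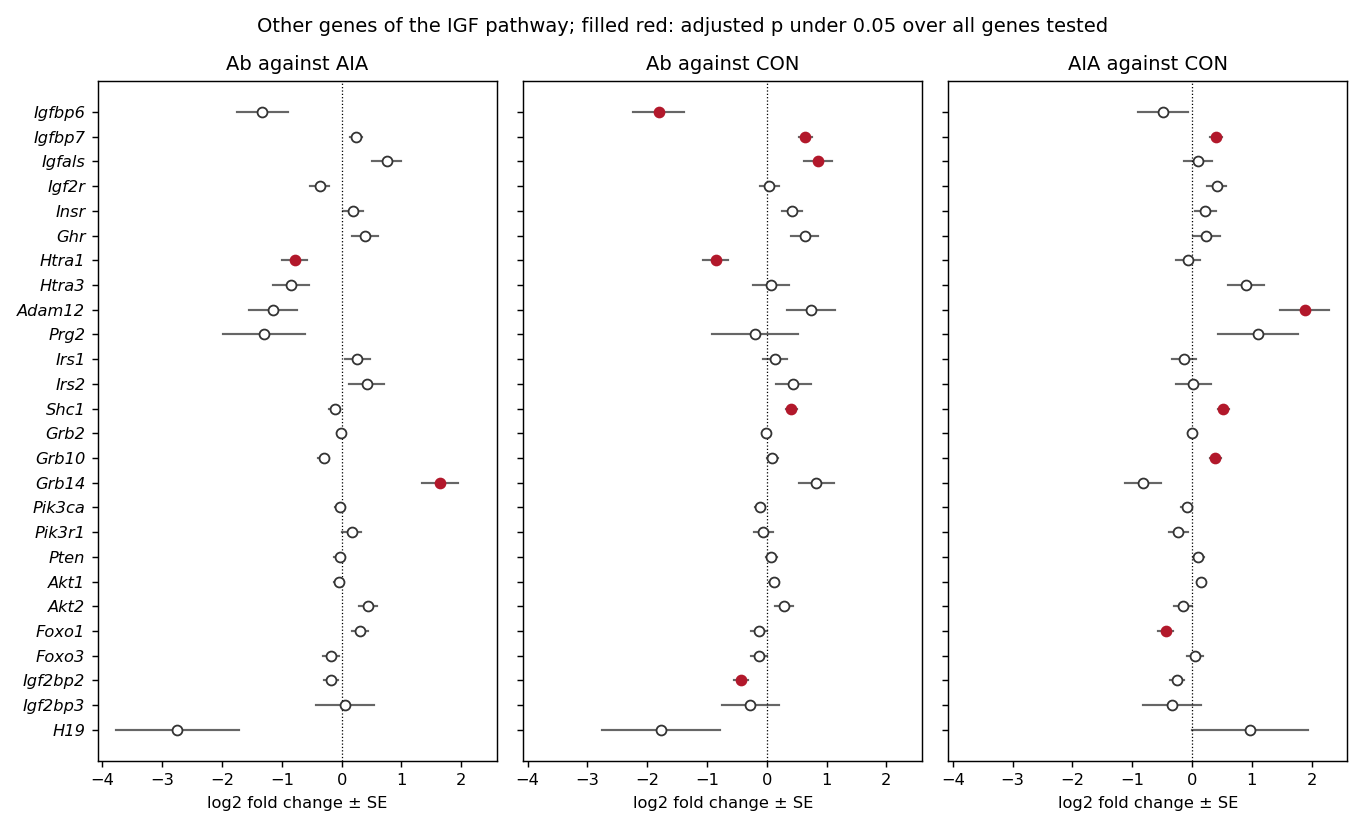
Log2 fold changes ± SE of the 26 other pathway genes tested, in Ab against AIA, Ab against CON and AIA against CON. Filled red points mark adjusted p under 0.05 over all genes tested, among them Grb14 in Ab against AIA at 1.65 and Adam12 in AIA against CON at 1.89, and H19 has the widest bars.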

How the data were processed

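Synovial RNA of 15 libraries was sequenced after SMARTER mRNA preparation from 1.3 ug of total RNA, per the labels' protocols, and titles gave the groups. Libraries were counted as 1 rat each, and p-values cover the spread between libraries. The title of Ab replicate 21_8 holds a pair of numbers, and whether this library holds more than 1 rat is not known. The authors deposited raw counts and FPKM per gene symbol. The gene length implied by count, library total and deposited FPKM lay within 0.1% of the gene's median over libraries in 100% of 291027 values. No source used here gives the aligner or counter. GRCm38 and mm10, both mouse builds, stand in the submitters' processing notes, yet 20949 of 23342 symbols match rat RefSeq symbols (GRCr8), so the annotation is uncertain. Strand use is unstated, and antisense reads may be included.

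Tests ran in R 4.3.3 with edgeR 4.0.16: filterByExpr (16046 genes kept, 7296 removed), TMM factors, 1 quasi-likelihood fit over 15 libraries, and Benjamini-Hochberg adjustment over all genes tested, with calls at adjusted p under 0.05. SE is the fold change over the root of F. The fit was tested on simulated data. Alternatives used DESeq2 1.42.0, limma 3.58.1 on log2(FPKM + 0.1) and log2(FPKM + 1), other factors, no filter, fewer libraries and exact permutation. The alternatives for other pathway genes, and the fit without AIA replicates 18, 19 and 23, were chosen after seeing the data. A planned comparison of protein sequences was not made.

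The 10 genes, the pathway list and the marker lists were chosen with earlier results of these data known. The text names all 10 genes, pathway genes called in a comparison, and the 3 genes most correlated with each called gene of the 10. H19 was named after its values were seen.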

Additional observations from a re-analysis of the deposited data

Results flagged for a closer look

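Igf1 in CON replicate 11 was far from the other 4 CON libraries, at 7.55 log2 CPM, against 8.72 in the nearest and 9.15 in the highest of them. The gap was 0.731 of the range of the group, past the critical value of 0.71 for 5 libraries. It was the only such value in 30 groups of 5 (10 genes in 3 groups), where chance gives about 1 in 20. Igf1 was not called in any comparison with or without this library.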

How the results depend on the processing

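No paired analysis was possible because the groups share no replicate number. Pappa2 in AIA against CON was called under every alternative run except the fit without AIA replicates 18, 19 and 23. That fit called 0 members lower and 336 genes of the table in AIA against CON, with 0 pathway genes higher and 0 lower. It called 1 gene of the table in Ab against AIA, with 0 pathway genes higher and 0 lower. In Ab against CON it called 2 members lower, 5 pathway genes higher and 1829 genes of the table, against 1291 with all libraries. Without both libraries with muscle transcripts, members called lower were 1 in AIA against CON and 0 in Ab against CON, and the table gave 572, 220 and 757 calls in AIA against CON, Ab against AIA and Ab against CON. Pathway calls were then 2 higher and 0 lower in AIA against CON and 0 lower in Ab against AIA. DESeq2 called 1 member higher in AIA against CON (Igfbp4), 1 higher in Ab against AIA (Pappa2) and 2 lower in Ab against CON (Igfbp3 and Pappa). It called 1858 and 2018 genes of the table in Ab against AIA and Ab against CON. DESeq2 also called 2 pathway genes lower in AIA against CON. The share of all genes it called lower there is not given here, so that count has no baseline. In Ab against AIA it called 3 pathway genes higher and 5 lower, and in Ab against CON 5 higher. With only the 2 groups compared in the fit, the table gave 907 calls in AIA against CON and 112 in Ab against AIA. In Ab against CON that setting gave 2 members lower and 5 pathway genes higher, and its total over the table is not given here. Pathway calls in Ab against AIA were then 0 lower. RLE factors and no filter each gave 0 pathway genes lower in AIA against CON, and log2(FPKM + 1) gave 615 calls of the table in Ab against AIA. The cause was not tested, except that fewer libraries enter some of these fits.

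With 1 library left out, members called were 0 to 1 higher and 2 to 4 lower in AIA against CON, 0 to 2 higher in Ab against AIA and 0 to 2 lower in Ab against CON. Calls of the table ran from 910 to 1943 in AIA against CON, 187 to 2032 in Ab against AIA and 708 to 1552 in Ab against CON, against 1370, 935 and 1291 with all libraries. Pathway calls were 3 to 5 higher and 0 to 1 lower in AIA against CON, 1 to 2 higher and 0 to 4 lower in Ab against AIA, and 2 to 3 higher and 0 to 3 lower in Ab against CON.

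Changes of sign met uncalled log2 fold changes only. With 1 library left out, Igf1 ran from -0.267 to 0.0493 in AIA against CON and from -0.0406 to 0.275 in Ab against CON. In Ab against AIA, Igf2 ran from -0.116 to 0.292, Igf1r from -0.0668 to 0.0868, Igfbp3 from -0.126 to 0.0695 and Igfbp5 from -0.226 to 0.068. In Ab against AIA, Igf2 was -0.00246 with DESeq2, -0.00245 with RLE and -0.000204 with upper quartile factors, and Igf1r was 0.000387 with log2(FPKM + 0.1). Without both libraries with muscle transcripts Igfbp3 was 0.0033 in Ab against AIA and Stc1 was 0.0311 in AIA against CON. Without AIA replicates 18, 19 and 23 Igfbp4 was 0.00261 in Ab against AIA and Stc1 was 0.0382 in AIA against CON. The lowest counts in a library were 28 for Pappa and 31 for Stc2.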
